A study of Gallus gallus with 50 samples.

Results

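Expression in the ileum, the last segment of the small intestine, was compared between chickens fed lysolecithin at the lower of its levels and chickens fed the unsupplemented control feed. The comparison rests on 10 of the 50 arrays of the study, 5 per feed, chosen by the feed and the tissue named in each array's label. The other feeds of the study were a higher level of lysolecithin and purified lysophosphatidylcholine (LPC) at 2 levels, and each bird also gave a jejunum array. All birds were male Cobb 500 broilers, a fast-growing meat strain, sampled on day 10, and RNA came from scraped mucosa.

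The control birds received feed with no additive. The lysolecithin low birds received the same feed with 250 g/T of lysolecithin, which supplied 9.5 g/T of LPC. The array labels carry the number 500 for this feed, and the product is described as lysolecithin on a carrier in equal parts by weight. Chicks were housed 25 to a pen in adjoining pens, so the 125 chicks would fill 5 pens, as many as there were feeds. The labels do not say how feeds were given to pens, so feed and pen cannot be told apart here. The labels also place the arrays in 3 batches without saying what a batch is: for both feeds compared here, replicates 1 and 2 were in batch 1, replicates 3 and 4 in batch 2 and replicate 5 in batch 3. A scraping holds epithelium together with immune and connective tissue cells, and in such bulk RNA a smaller number of cells of a type cannot be told apart from less RNA per cell.

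Lysolecithin is a mixture of phospholipids from which one fatty acid has been removed. It is used in feed as an emulsifier, and the enterocyte absorbs LPC and rebuilds it into the phospholipid coat of lipoproteins. Interferons are secreted proteins that switch on a shared set of antiviral genes in nearly every cell type. In the gut these genes include sensors of double-stranded RNA, enzymes that block viral replication and the factors that pass on the signal. The chicken lacks the RNA sensor RIG-I and the factor IRF3 of mammals, so IFIH1 (MDA5) and IRF7 hold central places in this pathway.

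Values are log2 signals per probe set, made by the authors with RMA, and 1 unit is a doubling of signal. The 10 arrays lay on the ileal side of a segment score, the mean of jejunal minus ileal marker genes, with controls at -6.34 to -4.44 and lysolecithin low arrays at -5.31 to -3.86. FABP6, the ileal bile acid binding protein, read 12.80 to 13.35 in controls and 12.91 to 13.29 in lysolecithin low arrays. The mean of 8 enterocyte markers ran from 11.85 to 12.14 in controls and from 12.07 to 12.22 with lysolecithin low. The labelled tissue was thus borne out by its markers in both groups. An index of labelling and RNA integrity, the 5' minus 3' signal of control transcripts, was -0.80 ± 0.14 (SD, n = 5) in controls and -0.70 ± 0.14 (SD, n = 5) with lysolecithin low (exact permutation test, two-sided, p = 0.349, the smallest possible being 0.00794). Of the other ileum arrays in the fit, 3 did not match their labelled segment or bird. They enter every fit of all 25 ileum arrays. Calls that change without them are named for 81 genes that were traced through alternative fits. The genes named under other observations were not among them. Nor were COL9A3, CRYL1, DTX3L, GBP1, IFT88, IRF1, IRF8, PARP14, SMCHD1, TNFSF10 and XAF1.

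Past an adjusted p of 0.05 (limma with batch as a term, Benjamini-Hochberg over all 38382 probe sets) were 336 probe sets, 0.875% of those tested. Of these 172 rose and 164 fell, 0.448% and 0.427% of all. The increases were the larger changes: their median was 1.24 on the log2 scale, with 112 above 1, 22 above 2 and 5 above 3. The decreases had a median of -0.80, with 40 beyond -1 and none beyond -2. All 5 lysolecithin low arrays lay above all 5 controls for 151 of the 172 that rose and below them for 102 of the 164 that fell. Over all probe sets such separation was seen upward in 1.74% and downward in 1.49%. The differences were above 0 in every batch for all 172 that rose and below 0 in every batch for 158 of the 164 that fell. The calls were made from the same arrays with batch as a term, so this agreement describes them and is no separate support. By gene, 119 rose and 109 fell by at least 1 probe set, with no gene called both ways.

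The size of this set depended on single birds. Leaving out each bird in turn gave between 21 and 554 probe sets, with 21 when control replicate 3 was left out. It gave 42 in the absence of lysolecithin low replicate 1, 131 in the absence of its replicate 5, and 103 and 170 when control replicates 2 and 4 were dropped. Without the ileum arrays of other feeds that did not match their labels, 663 passed, 1.73% of those tested, and 334 of them were among the 336. Of the 81 genes traced through the alternatives, those that passed with all arrays also passed without the ones in doubt, and MUC2 and TLR3 passed in addition. Genes past the threshold in all alternatives tried, each bird left out included, were CNP, DHX58, EHBP1, EIF2AK2, GNPTAB, IFIT5, IPO7, MOV10, NDC80, PML, RNF213, STOML1 and ZNFX1 among these 81. Of the genes described below, MX1 and MEP1A passed in 2 of the 10 fits with 1 bird left out, C1R, MYBPC1, PLS3 and SOCS1 in 3, and DPP4, RPL7 and RPS15A in 4. LIPA, LPAR5, IRF7, CTSS, MITD1, POSTN and RPL3 passed in 5 of the 10. With the 5' minus 3' index as a covariate the calls of DPP4, MEP1A, PLS3 and SOCS1 were lost (limma, adjusted p = 0.0572, 0.0611, 0.0540 and 0.0539).

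**Figure D1:**
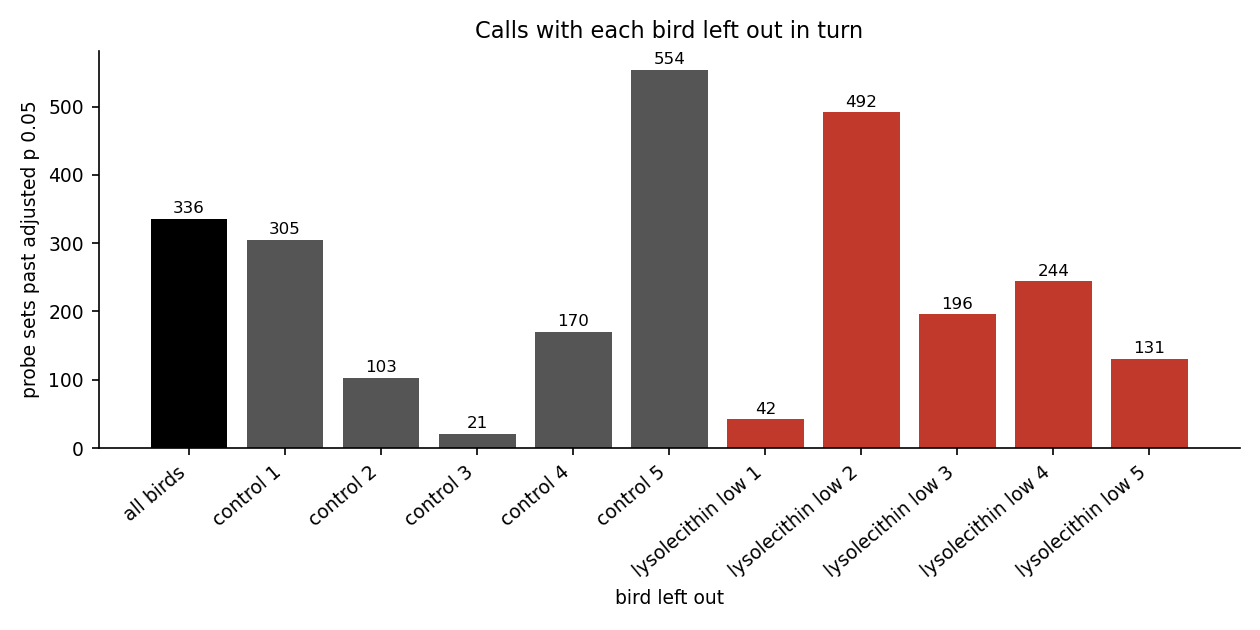
Number of probe sets past an adjusted p of 0.05 in the ileum, lysolecithin low against control, with all birds (black) and with each control (grey) or lysolecithin low bird (red) left out. The bars run from 21 without control replicate 3 to 554 without control replicate 5, against 336 with all birds.

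Antiviral genes of the interferon response were higher with lysolecithin low. Of 34 genes listed for this response 29 were measured, 20 rose and none fell, where 0.792% of all 13009 genes rose by the same single probe set per gene. All 29 differences were above 0, against 51.6% of all genes, and their median was 1.41 on the log2 scale against 0.01. For 23 of the 29 the groups did not overlap, which was seen upward in 2.69% of all genes. The mean of the list per bird was 8.50, 7.82, 8.39, 8.49 and 7.82 in the controls and 9.97, 9.30, 9.67, 9.74 and 9.74 in the lysolecithin low birds. Control replicates 2 and 5 were the lowest of all, and the lowest lysolecithin low bird, replicate 2, stood above the highest control. The list median was 1.33 in batch 1, 1.29 in batch 2 and 1.77 between the single pair of birds in batch 3. Only 4 members passed when control replicate 3 was left out, 12 when control replicate 2 was, and 6 in the absence of lysolecithin low replicate 1, while the list median stayed between 1.31 and 1.49 with any 1 bird left out.

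Among the effectors, RSAD2 changed most. It encodes viperin, an enzyme whose product ends viral RNA chains early. The control arrays read 6.95, 4.91, 6.96, 7.48 and 5.14, and the lysolecithin low arrays 10.70, 9.23, 11.08, 10.84 and 10.94. No control came near any lysolecithin low bird, although replicate 2 was the lowest of its group under each feed. The difference was 4.27 ± 0.76 (SE; limma, adjusted p = 0.0119), a 19.3-fold higher signal. CMPK2, the mitochondrial nucleotide kinase whose gene lies beside RSAD2, read 7.34 to 8.54 in controls and 10.20 to 10.57 with lysolecithin low, a rise of 2.34 ± 0.44 (limma, adjusted p = 0.0147).

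IFIT5, which binds viral RNA by its 5' end, read 9.02, 7.20, 9.04, 9.39 and 7.82 in controls against 11.89, 10.82, 11.71, 11.74 and 11.66 with lysolecithin low. The groups stood apart and the same 2 controls were low, giving a difference of 3.07 ± 0.51 (SE; limma, adjusted p = 0.0107). SAMD9L, a restrictor of virus and cell growth, read 7.74, 6.26, 7.59, 7.61 and 5.88 against 10.06, 9.15, 10.02, 9.95 and 10.30, and rose by 2.88 ± 0.53 (limma, adjusted p = 0.0132). Its other probe set, at 0.94, did not pass. OASL, the oligoadenylate synthetase of birds, rose by 2.19 ± 0.40 from 8.93 to 9.95 in controls to 11.50 to 12.11 (limma, adjusted p = 0.0124). MX1, a GTPase induced by type I interferon, was already at 8.93 to 10.55 in controls and reached 10.78 to 11.98, a rise of 1.93 ± 0.42 with groups that did not overlap (limma, adjusted p = 0.0329).

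The cytosolic sensors of viral RNA rose together. IFIH1 encodes MDA5, which detects long double-stranded RNA, and it read 8.63, 7.97, 8.57, 8.91 and 8.31 in controls and 11.03, 9.56, 10.66, 10.69 and 10.92 with lysolecithin low. Its difference was 2.09 ± 0.38 (SE; limma, adjusted p = 0.0132). DHX58, the helicase LGP2 that acts with MDA5, read 7.22, 6.89, 7.42, 7.00 and 7.01 against 9.56, 9.05, 8.70, 9.22 and 8.93. Its controls lay close together, no group value crossed the other group, and its difference was 1.98 ± 0.32 (limma, adjusted p = 0.00837). EIF2AK2, the kinase PKR that stops translation on binding double-stranded RNA, rose by 1.91 ± 0.31 from 7.70 to 8.71 in controls to 9.58 to 10.47 (limma, adjusted p = 0.00865). ZNFX1, a helicase that senses viral RNA at mitochondria in mammals, rose by 1.54 ± 0.24, and TMEM173, known as STING and the relay of the DNA sensing pathway, by 2.06 ± 0.40, both with no overlap between groups. TLR3, the endosomal sensor of double-stranded RNA, lay between 7.03 and 8.21 in controls and between 8.85 and 9.32 with lysolecithin low, but its difference of 1.37 ± 0.33 fell short of the threshold with all arrays (limma, adjusted p = 0.0515) and passed without those in doubt (adjusted p = 0.0462).

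**Figure D2:**
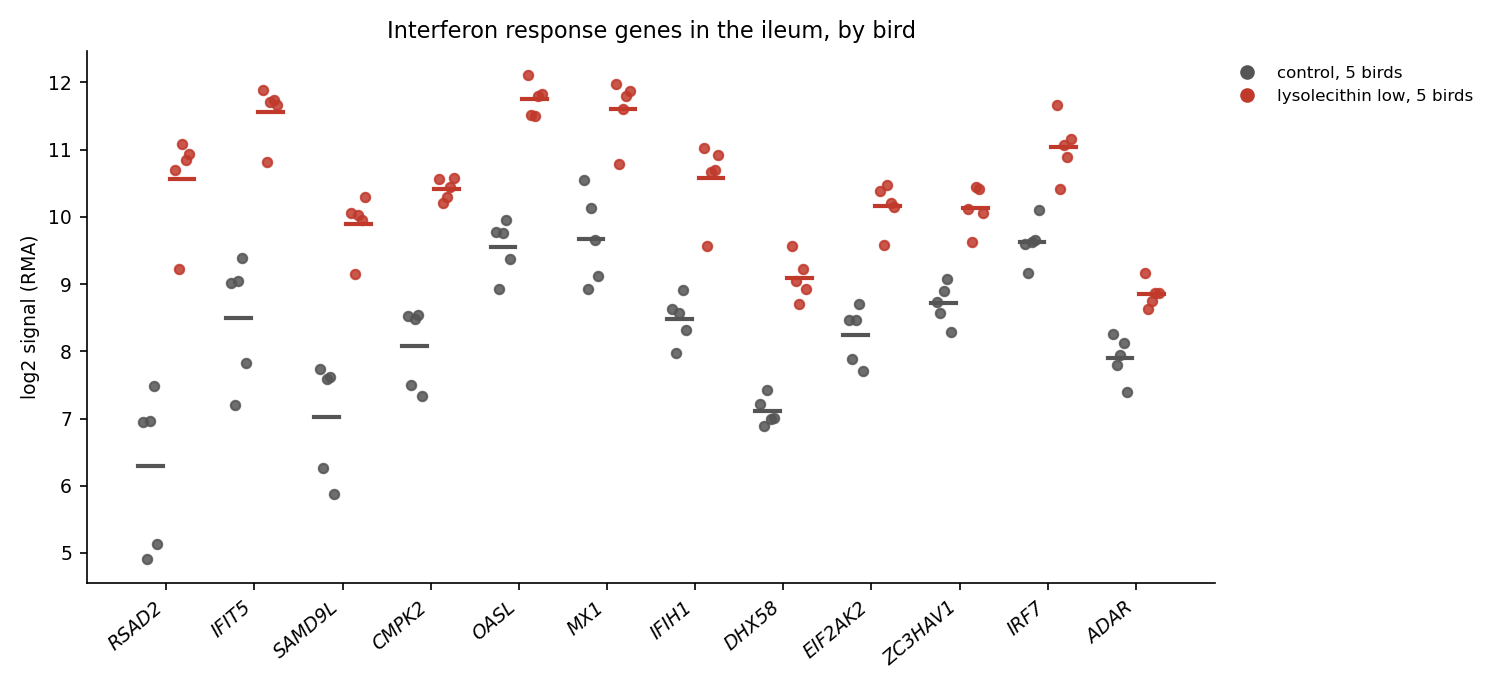
Log2 signal (vertical axis) of 12 interferon response genes in the ileum of control (grey) and lysolecithin low birds (red), 5 each. Points are birds in replicate order from left to right and bars are group means. The groups do not overlap for any of the 12 genes, and control replicates 2 and 5 are low for RSAD2, SAMD9L and CMPK2.

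Genes that carry or restrain the signal were also among those that rose. IRF7, the transcription factor that induces interferon genes, read 9.60, 9.16, 9.62, 9.66 and 10.10 in controls and 11.67, 10.41, 11.07, 10.89 and 11.16 with lysolecithin low, a difference of 1.41 ± 0.29 (SE; limma, adjusted p = 0.0211). Control replicate 5, low for most effectors, was the highest control for IRF7. SOCS1, which inhibits the signal below the interferon receptor, rose by 2.01 ± 0.46 from 7.73 to 8.70 in controls to 9.57 to 10.91 (limma, adjusted p = 0.0383). TRIM25, a ubiquitin ligase of the RNA sensing pathway, rose by 0.81 ± 0.15. ADAR, which edits double-stranded RNA, rose by 0.95 ± 0.18. PARP9, whose product works in a complex with that of DTX3L, rose by 1.50 ± 0.26, and ZC3HAV1, the zinc finger protein that marks viral RNA for decay, by 1.42 ± 0.24. For these last 4 genes every lysolecithin low bird was above every control.

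Of the 29 members 9 did not pass, TLR3 among them. HELZ2, a helicase and nuclear receptor partner, differed by 1.86 ± 0.50 (limma, adjusted p = 0.0702) with lysolecithin low values spread from 5.83 to 8.09. IFI6 differed by 1.11 ± 0.28 (limma, adjusted p = 0.0642), and with lysolecithin low it read 13.72 to 13.96, close to the highest value on any array, 13.99. IRF1 differed by 0.51 and IRF8 by 0.67, with groups that overlapped. XAF1 and GBP1 differed by 0.08 and 0.09 and had mean signals of 2.98 and 2.97 over the ileum arrays, among dim probe sets. Inflammatory cytokines and chemokines, which answer to other signals as well, showed no call among 25 measured, and their median was 0.14.

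Genes outside the list rose as well. MOV10, an RNA helicase that restricts retroviruses, had the smallest adjusted p of the increases with a gene name. It read 8.87, 8.19, 8.86, 8.99 and 8.59 in controls and 10.77, 9.92, 10.13, 10.50 and 10.46 with lysolecithin low, a difference of 1.66 ± 0.24 (SE; limma, adjusted p = 0.00751). RNF213, a giant ubiquitin ligase with antimicrobial roles in mammals, rose by 1.69 ± 0.26, and PML, the scaffold of nuclear bodies, by 1.41 ± 0.22, each without overlap. The 4 other probe sets of RNF213, at 0.15 to 0.96, and the other of PML, at 0.42, had the same sign but did not pass. USP41, a ubiquitin-specific protease, rose by 2.20 ± 0.42 from a control range of 8.99 to 11.29. C1R, a protease of the complement cascade, rose by 1.91 ± 0.42 from a low level of 4.08 to 5.53. Its other probe set, at 1.73, did not pass.

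Other increases outside the list were in genes of varied roles. SLBP, which binds the end of histone mRNAs, read 4.89, 4.38, 4.69, 4.65 and 3.64 in controls and 8.02, 6.92, 8.39, 8.81 and 9.02 with lysolecithin low. The difference was 3.78 ± 0.65 (SE; limma, adjusted p = 0.0109), and its other probe set also rose, by 3.87. FAM188A, a deubiquitinase, rose by 2.68 ± 0.50 and MITD1, which acts at the end of cell division, by 1.97 ± 0.40. NDC80, a kinetochore protein, rose by 1.25 ± 0.20 from 5.06 to 6.08 in controls to 6.57 to 7.11, while the cell cycle list that it is not part of had no call among 28 genes. CNP, a phosphodiesterase best known from myelin, had nearly equal controls, at 6.32 to 6.45, and lysolecithin low values of 7.43 to 8.27, a rise of 1.51 ± 0.24 (limma, adjusted p = 0.00837).

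Neighbouring genes occurred together among those that rose. In the order of the 13004 genes that could be placed in a current chicken gene table, 25 of the 119 genes that rose (21%) had a direct neighbour that also rose, in 13 adjacent pairs, whereas 1.78% of all placed genes had a direct neighbour that rose. The pairs included CMPK2 and RSAD2, PML and STOML1, DHX58 and KAT2A, LIPA and IFIT5, SMCHD1 and NDC80, and PARP14 with DTX3L and PARP9. Only 1 adjacent pair, IFT88 and CRYL1, fell together. Whether neighbours share transcripts or probe sequence was not tested. The probe sets of KAT2A, an acetyltransferase, disagreed: the one with the lowest p rose by 1.98 ± 0.35, whereas its brightest probe set differed by -0.82 (limma, adjusted p = 0.214).

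Lipid genes, the ones nearest to the additive itself, were read by list. Over all genes 0.792% rose and 0.515% fell, so few calls are expected in lists of this size. LIPA, the lysosomal acid lipase that splits cholesteryl esters and triglycerides, read 10.59, 10.17, 10.83, 10.63 and 10.47 in controls and 11.91, 11.51, 11.96, 11.73 and 11.86 with lysolecithin low. Its groups were well apart, the difference was 1.26 ± 0.25 (SE; limma, adjusted p = 0.0187), and its 4 other probe sets also rose. LIPA is the neighbour of IFIT5 named above. It was the only gene called among 13 of glyceride synthesis and breakdown, of which 12 were above 0 with a median of 0.25.

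LPAR5 is a receptor for lysophosphatidic acid, which is made from LPC by removal of its choline. It was the only 1 of 11 lysophospholipid receptors called, where 0.792% of all genes rose. Controls read 9.46, 8.47, 9.04, 9.37 and 9.06 and lysolecithin low birds 10.15, 9.98, 10.49, 10.08 and 10.02, a rise of 1.06 ± 0.21 with no overlap (limma, adjusted p = 0.0197). The other probe set of LPAR5, at 0.78, did not pass. None of 28 enzymes of phospholipid and lysophospholipid turnover was called, and their median was 0.04. Among them PLA2G4A, a cytosolic phospholipase that releases arachidonic acid, was lower in every lysolecithin low bird, at 5.38 to 6.06 against 6.28 to 6.63, but its difference of -0.67 ± 0.18 did not pass (limma, adjusted p = 0.0677). LPCAT3, which turns absorbed LPC back into phosphatidylcholine, differed by -0.12 ± 0.23 with groups that overlapped.

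Lipoprotein assembly genes were higher without a call. All 9 measured had differences above 0, with a median of 0.51, and the list mean was 10.44, 9.75, 10.17, 10.53 and 10.32 in controls and 10.34, 10.93, 10.87, 10.74 and 10.95 with lysolecithin low. Lysolecithin low replicate 1 sat among the controls and the other 4 above them. APOA4, a protein of intestinal lipoproteins, read 8.97 to 11.76 in controls and 11.19 to 13.06 with lysolecithin low, a difference of 1.54 ± 0.52 (limma, adjusted p = 0.157). APOA1 differed by 0.73 ± 0.25, MTTP, which loads lipid onto nascent particles, by 0.51 ± 0.23, and APOB, their core protein, by 0.32 ± 0.17, none past the threshold. SCARB1, a receptor for lipoprotein cholesterol, had the widest spread: 5.90, 9.80, 8.32, 5.02 and 7.12 with lysolecithin low against 5.64, 4.03, 3.92, 4.86 and 5.34, a difference of 2.47 ± 0.95 (limma, adjusted p = 0.219). The list of 8 jejunal markers, which holds SCARB1, APOA4 and APOA5, had a median of 0.46 in the same comparison. The list of 8 ileal markers had 0.11, with no call in either. The segment score is taken from both lists, so it shares these lipid genes. The segment score was -5.26 ± 0.92 (SD, n = 5) in controls and -4.53 ± 0.54 (SD, n = 5) with lysolecithin low (exact permutation test, two-sided, p = 0.183). The part of segment position in these lipid values was not tested.

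Genes of bile acid return, the task of the ileum, were not called. Among 11 measured, 8 were above 0 and the median was 0.21. SLC10A2, the bile acid uptake transporter, differed by 0.21 ± 1.01, FABP6 by -0.00 ± 0.61 and FGF19, the hormone by which the ileum signals bile acid load to the liver, by 1.33 ± 0.90. These standard errors come from all 25 ileum arrays, some of them in doubt, and within the 10 arrays compared SLC10A2 lay between 11.23 and 12.00. FGF19 ranged from 6.40 to 10.02 in controls and 8.11 to 10.98 with lysolecithin low. No gene was called among 14 of fatty acid and sterol uptake (median -0.04), 17 of fatty acid oxidation (median -0.29) or 16 of cholesterol synthesis (median -0.06).

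**Figure D3:**
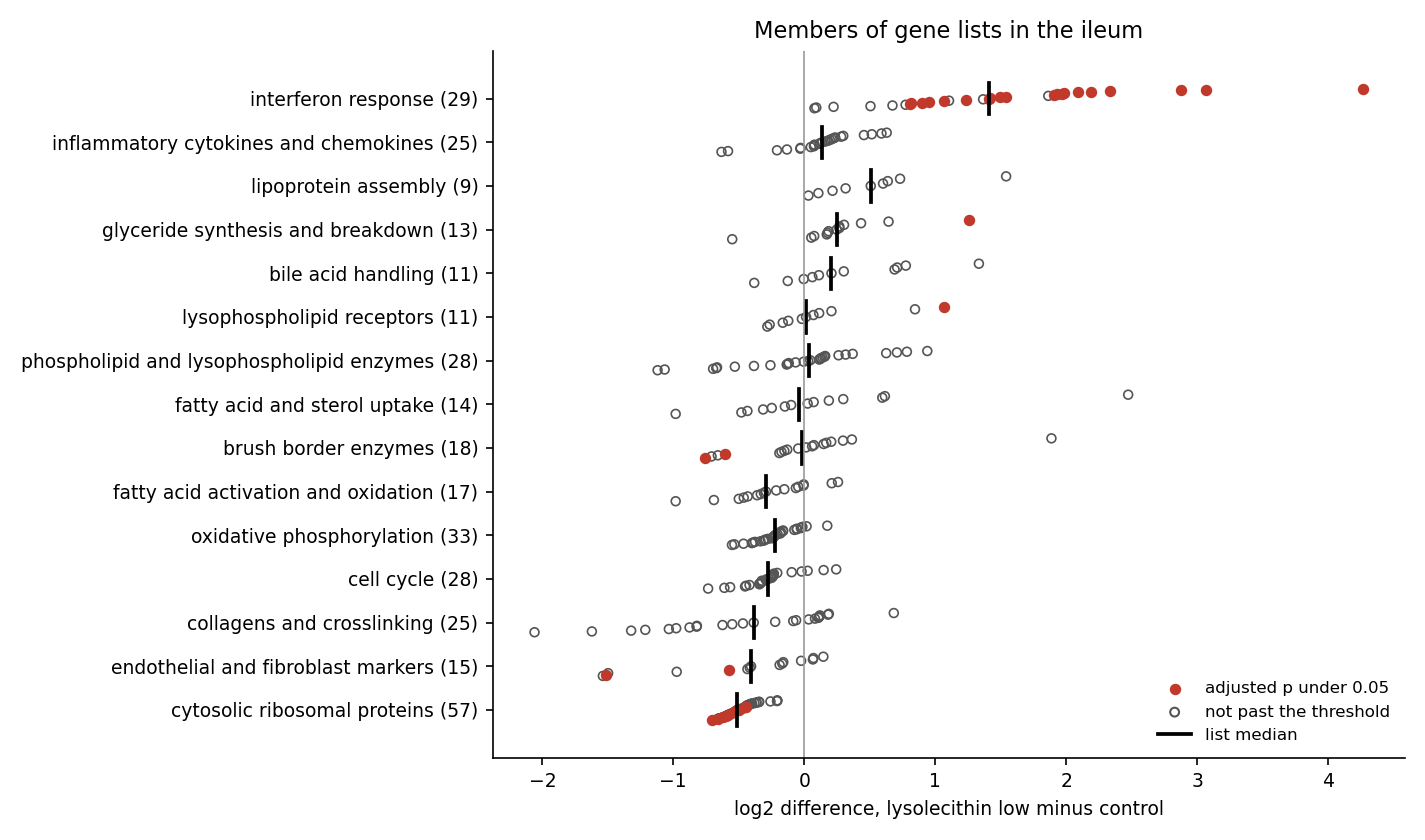
Log2 difference, lysolecithin low minus control, of each measured member of 15 gene lists in the ileum, with the number of members in brackets. Filled points passed an adjusted p of 0.05, open points did not, and black bars are list medians. The interferon list has 20 filled points and a median of 1.41, and the ribosomal list 10 filled points and a median of -0.51.

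Among genes with a symbol that passed the threshold, the largest decrease was in EHBP1, an adaptor between endocytic membranes and actin. Its controls read 6.94, 6.84, 7.99, 7.01 and 7.72 and its lysolecithin low birds 4.80, 5.23, 5.64, 5.57 and 5.32. The gap between the groups exceeded the range of the lysolecithin low birds, and the difference was -1.99 ± 0.28 (SE; limma, adjusted p = 0.00751). Of its 3 other probe sets 2 also fell, by 1.60 and 1.17. GNPTAB, which tags enzymes for delivery to lysosomes, read 8.56, 8.51, 8.74, 8.93 and 8.64 in controls and 6.44, 7.31, 7.54, 6.46 and 7.91 with lysolecithin low, and fell by 1.54 ± 0.25 (limma, adjusted p = 0.00837). Its lysolecithin low birds were the more spread of the groups. PLCB4, a phospholipase C of receptor signalling, fell by 1.57 ± 0.30 from 5.92 to 7.26 in controls to 4.65 to 5.29. None of its 5 other probe sets passed, and they ran from -0.54 to 0.12.

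Other genes that fell had varied roles. PLS3, an actin bundling plastin, read 9.48, 10.32, 9.30, 9.55 and 9.11 in controls and 7.43, 9.00, 7.92, 8.07 and 8.46 with lysolecithin low, a fall of 1.38 ± 0.31 (limma, adjusted p = 0.0379). SETD3, which methylates actin, had nearly equal controls, between 7.84 and 7.93, and fell by 0.58 ± 0.10 with no overlap. MAP7, a microtubule protein, fell by 0.93 ± 0.15 and PCNT, a scaffold of the centrosome, by 1.35 ± 0.22, although their groups overlapped. No other probe set of either passed. The 2 of MAP7 were at -0.90 and -0.46, and the 4 of PCNT ran from -0.34 to 0.08. IPO7, a nuclear import receptor, fell by 0.92 ± 0.15 without overlap, and all 4 of its other probe sets had the same sign. NFATC3, a calcium-regulated transcription factor, fell by 0.90 ± 0.14 and SEMA5A, a guidance protein of the membrane, by 0.85 ± 0.14, from 10.21 to 10.85 in controls to 9.58 to 10.10. None of the 3 other probe sets of NFATC3 (-0.37 to -0.30) or the 8 of SEMA5A (-0.80 to 0.05) passed.

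Transporters and brush border enzymes gave 3 decreases. SLC4A4, the sodium bicarbonate cotransporter, read 7.30, 7.39, 7.51, 7.26 and 8.16 in controls and 5.65, 6.67, 6.20, 6.07 and 6.77 with lysolecithin low, and fell by 1.25 ± 0.22 (limma, adjusted p = 0.0119). It was the only 1 of 29 ion and water transport genes called, beside 0.515% of all genes that fell. DPP4 and MEP1A, peptidases of the enterocyte surface, fell by 0.61 ± 0.14 and 0.76 ± 0.18 (limma, adjusted p = 0.0436 and 0.0446), as 2 of 18 brush border genes whose median was -0.02, where 0.515% of all genes fell. The other probe sets of DPP4 were at -0.10 and 0.02. MEP1A overlapped between groups, with lysolecithin low replicate 2 at 12.73 inside the control range of 12.57 to 13.09. CTNND1, the p120 catenin of adherens junctions, went the other way and rose by 0.51 ± 0.09 with no overlap. None of its 3 other probe sets, at 0.04 to 0.53, passed. MUC2, the gel mucin of goblet cells, differed by -1.18 ± 0.33 and did not pass with all arrays (limma, adjusted p = 0.0845), but did without those in doubt (adjusted p = 0.0239) and with the index as a covariate (adjusted p = 0.0231).

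**Figure D4:**
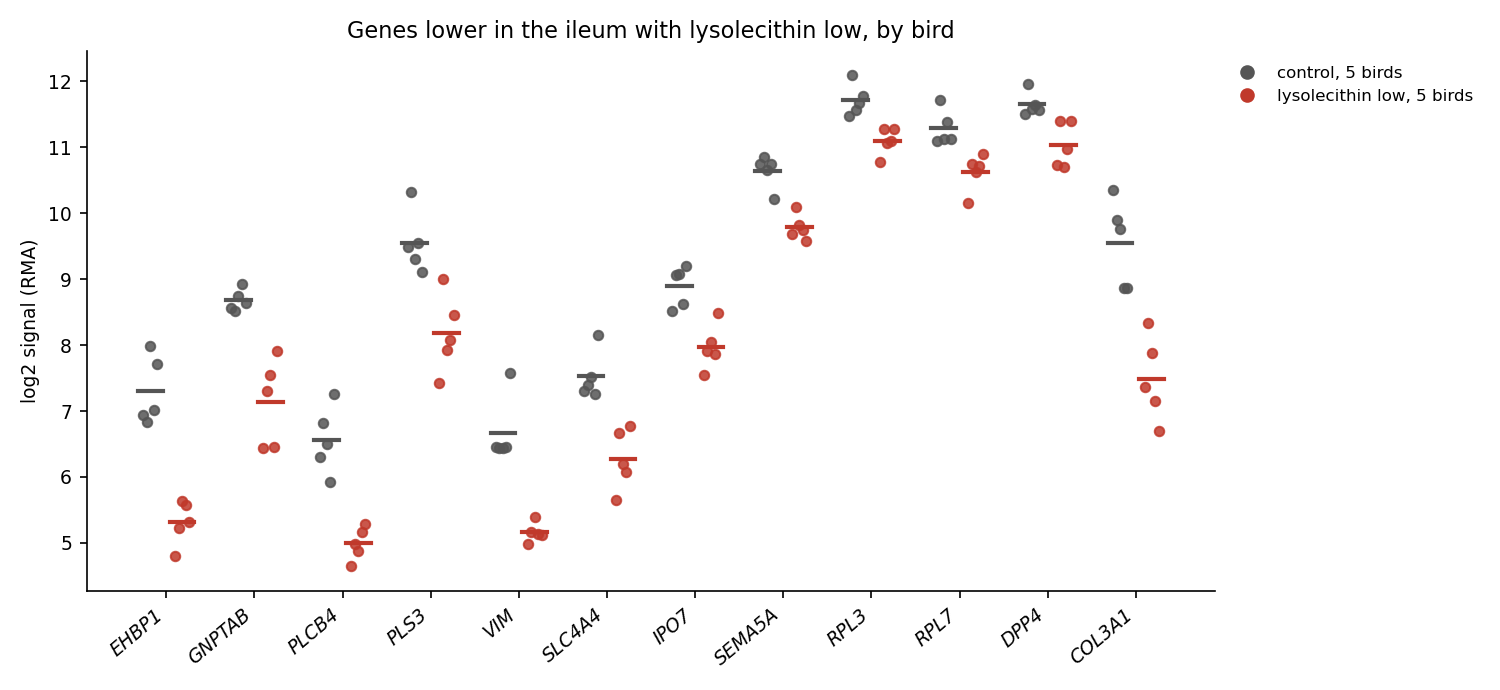
Log2 signal (vertical axis) of 12 genes in the ileum of control (grey) and lysolecithin low birds (red), 5 each, as points in replicate order with bars at group means. The groups do not overlap for any of them. COL3A1 did not pass the threshold (adjusted p = 0.203), and the other 11 fell.

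Cytosolic ribosomal protein genes were lower as a block and by a small amount. By the brightest probe set of each gene, all 57 measured had differences below 0, from -0.71 to -0.21 with a median of -0.51. Of these 10 fell, against 0.515% of all genes. For 27 of the 57 every lysolecithin low bird was below every control, which was seen in 1.86% of all genes. RPL3 read 11.47, 12.09, 11.56, 11.67 and 11.78 in controls and 10.77, 11.28, 11.06, 11.09 and 11.27 with lysolecithin low, a fall of 0.62 ± 0.13 (SE; limma, adjusted p = 0.0229). RPS15A fell by 0.60 ± 0.12 and RPL7 by 0.66 ± 0.14. The other probe set of RPS15A was at -0.35 and that of RPL7 at 0.02, and neither passed. The list mean was 11.35, 11.83, 11.22, 11.45 and 11.34 in controls and 10.62, 11.17, 10.82, 11.03 and 11.11 with lysolecithin low, so the lowest bird was lysolecithin low replicate 1 and the highest control replicate 2. Lysolecithin low replicate 1 also had the narrowest spread of signals, an interquartile range of 2.79 against 3.13 to 3.28 in controls, and the part of this in the result was not tested. No member passed in a fit of the 2 groups alone, when that bird was left out, or when control replicate 2, 3 or 4 was. A single member passed when batch was not a term or when lysolecithin low replicate 3 or 5 was left out, and 25 passed after quantile normalisation. The median stayed between -0.57 and -0.39 under these settings.

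Of 15 endothelial and fibroblast markers 2 fell, VIM and POSTN, where 0.515% of all genes fell. VIM, the intermediate filament of mesenchymal cells, read 6.45, 6.44, 6.44, 6.46 and 7.58 in controls and 4.98, 5.17, 5.40, 5.13 and 5.12 with lysolecithin low. Of its controls 4 were nearly equal and replicate 5 stood above them, and it fell by 1.51 ± 0.29 (SE; limma, adjusted p = 0.0175). POSTN, a matrix protein of fibroblasts, fell by 0.57 ± 0.12 at a low level of 3.16 to 4.19 (limma, adjusted p = 0.0292), and its other probe set was at -0.01. The list had 3 members above 0 and a median of -0.41, and its mean was 4.75 to 5.17 in controls and 4.19 to 4.49 with lysolecithin low. That median moved to -0.23 without control replicate 1 and to -0.14 without lysolecithin low replicate 5. LUM, a fibroblast proteoglycan, differed by -1.50 ± 0.42 (limma, adjusted p = 0.0848).

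Collagens, the gene group in the title of the study, gave no call in the ileum among the genes listed, each read by its brightest probe set. None of 25 collagen and crosslinking genes was called this way, 9 were above 0 and the median was -0.39. Without the arrays in doubt 1 of the 25 fell. By its probe set of lowest p COL9A3, chosen after its values were seen, rose by 0.64. Of its 3 other probe sets 1 also passed with the same sign, and they ran from -0.07 to 2.02. The list of 20 basement membrane, laminin and integrin genes had no call, 11 above 0 and a median of 0.06. COL3A1, a fibrillar collagen of loose connective tissue, read 10.35, 9.90, 9.76, 8.86 and 8.86 in controls and 7.37, 8.33, 7.88, 7.15 and 6.70 with lysolecithin low. Every lysolecithin low bird was below every control, but the difference of -2.06 ± 0.76 did not pass (limma, adjusted p = 0.203). Its standard error comes from all 25 ileum arrays. COL6A1 differed by -1.62 ± 0.65 and COL1A1 by -1.21 ± 0.59. In a fit of the 2 groups alone all 3 passed, and in no other alternative did any of them. Smooth muscle markers, from the layer below the mucosa, had a median of 0.01 with no call among 14, and their mean was 5.33 to 6.44 in controls and 5.38 to 5.75 with lysolecithin low. The part of the depth of scraping in these values was not tested.

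Markers of immune cells gave 1 call, where 0.792% of all genes rose and 0.515% fell. No call was made among 15 T cell markers (median -0.15), 11 of B and plasma cells (median 0.02) or 4 measured for heterophils, the neutrophils of birds. Among 17 macrophage and dendritic cell markers only CTSS, a protease of antigen presentation, rose, by 0.75 ± 0.16 from 11.15 to 11.72 in controls to 12.02 to 12.24 (limma, adjusted p = 0.0234), and the list mean was 6.03 to 6.82 in controls and 5.98 to 6.53 with lysolecithin low. MKI67, a marker of dividing cells, differed by -0.61 ± 0.37 without a call, and the cell cycle list had a median of -0.28, which became -0.03 without control replicate 2, the bird in which that list was high. The list of 33 respiratory chain genes had 31 below 0 and a median of -0.22 without a call.

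The same birds were also measured in the jejunum. There the interferon list had a median of 1.04 with 28 of 29 above 0. Its mean per bird was 8.69, 7.85, 8.27, 8.35 and 7.99 in controls and 9.38, 8.94, 9.02, 9.35 and 9.56 with lysolecithin low, again without overlap. The array labelled jejunum control replicate 2 lay on the ileal side of the segment score, and its value of 7.85 was the lowest. Only TLR3 of this list passed in the jejunum, where it rose by 1.54 ± 0.23 (limma, adjusted p = 0.00998), in a comparison that called 0.0495% of probe sets. RSAD2 differed by 3.24 ± 0.78 in the jejunum against 4.27 ± 0.76 in the ileum, and IFIT5 by 2.14 ± 0.51 against 3.07 ± 0.51.

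Whether the response differed between segments was tested within birds, by subtracting the ileum from the jejunum value. No probe set passed in limma (0 of 38382, or 0%, with 1937 at an unadjusted p under 0.05 and a smallest adjusted p of 0.183), and none passed without the arrays in doubt. The interferon list was smaller in the jejunum for 28 of its 29 members, by a median of 0.46, and for RSAD2 the jejunum minus ileum effect was -1.03 (limma, adjusted p = 0.963). The ribosomal list had a median of -0.34 in the jejunum, with none of its 57 members above 0. A difference between segments was therefore not shown for any gene, which does not make the responses equal.

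**Figure D5:**
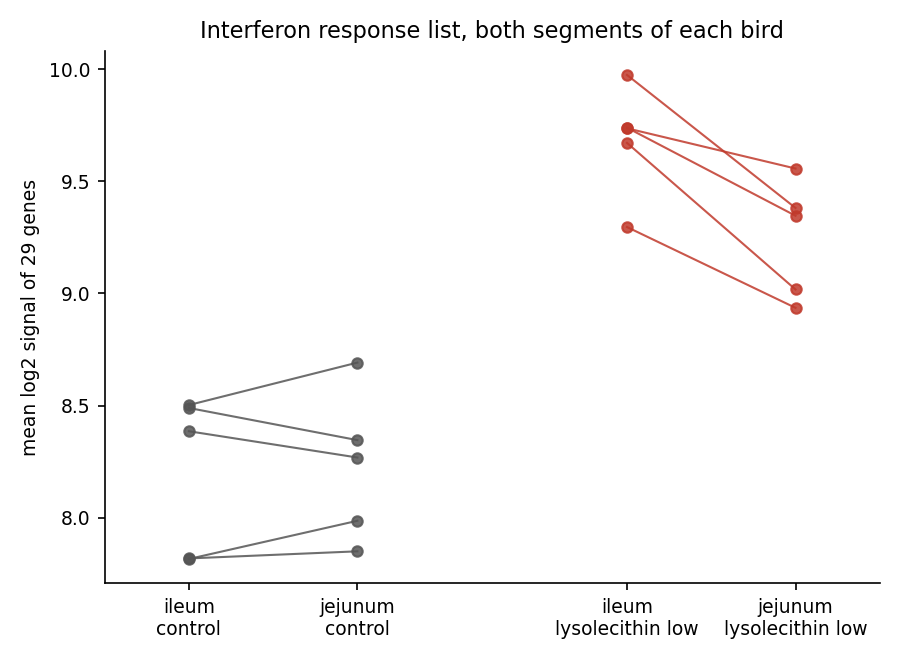
Mean log2 signal of the 29 measured interferon response genes (vertical axis) in the ileum and jejunum of each control (grey) and lysolecithin low bird (red), with lines joining both arrays of a bird. Lysolecithin low birds lie between 8.94 and 9.97 and control birds between 7.82 and 8.69.

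Purified LPC at the matched level of 9.5 g/T gave a direct comparison of the products in the ileum. Lysolecithin low differed from LPC low at 14 probe sets, 0.0365% of those tested, with 4820 at an unadjusted p under 0.05. Without the arrays in doubt, 2 of which are LPC low arrays, 1010 passed, 2.63% of those tested. NDC80 was higher with lysolecithin low than with LPC low by 1.34 and TNFSF10, a death ligand, by 1.22 (limma, adjusted p = 0.0197 and 0.0265). None of the 29 interferon genes was called between the products with all arrays and 1 was called without the arrays in doubt, although 27 of them were higher with lysolecithin and the median was 0.74 and 0.76. LPC low, LPC high and lysolecithin high differed from the control by medians of 0.59, 0.79 and 0.44 over the same list. Members above 0 numbered 27, 29 and 27 of the 29. With all arrays no member was called for any of these feeds, where 0.0313%, 0% and 0.216% of probe sets passed. When the doubtful arrays were dropped, 3 members rose with LPC low, where 2297 probe sets (5.98%) passed, and none was called with LPC high or lysolecithin high, where 0% and 0.0599% passed. In the same order of feeds, with all arrays, the ribosomal list had medians of -0.10, -0.36 and -0.24, with 4, 0 and 0 of 57 members above 0. Medians were -0.34, -0.67 and -0.06 for the collagen list and -0.29, -0.33 and -0.11 for the endothelial and fibroblast list. The lipoprotein assembly list had medians of 0.43, 0.31 and 0.48, and of 0.02 for lysolecithin low against LPC low. No member of these lists was called for any of these feeds with all arrays. The comparisons with the control share its 5 birds with the main comparison, and the one between products shares the 5 lysolecithin low birds.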

How the data were processed

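The deposited table gives each probe set's log2 signal on each array. The authors computed it by RMA, robust multi-array averaging, per the submitters' processing notes. These also name limma, and versions are not given in the sources used here. RMA equalises array distributions at the level of probes, so differences are relative to the bulk of the array. The deposited probe set values still differed in spread, with interquartile ranges of 3.13 to 3.28 in controls and 2.79 to 3.26 with lysolecithin low. The values, from 1.84 to 13.99, were used as given. After 153 control probe sets were left out, 38382 were tested without a filter. The platform annotation gave 27168 of them exactly 1 gene symbol (13009 genes), 177 several and 11037 none. For 26853 probe sets the gene ID was found in a current gene table (GRCg7b), used for names and gene order only. Depth has no counterpart on arrays, and the 5 arrays per group limit the precision. Only RNA with an integrity number above 8.7 was hybridised, per the labels.

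All 25 ileum arrays were fitted with limma 3.58.1 in R 4.3.3, with feed and batch as terms, and p-values were adjusted over all probe sets by Benjamini-Hochberg with a threshold of 0.05. The labels do not say more than that the samples are replicates, and bird numbers differ between them. The segment comparison used each bird's jejunum minus ileum difference over 25 birds. The fit was tested on simulated data. Genes in lists are read by their brightest probe set and others by that of lowest p, a choice that selects for size: of 228 called genes 149 had other probe sets, of which 48 of 354 passed with the same sign and 295 had the same sign.

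The members, the 38 lists (655 of 792 genes found) and the tests were chosen with earlier results of these data known, and the list of collagens follows the study's title. Genes named are the leading 12 each way by moderated statistic, up to 30 of the largest changes each way, the 4 highest and 4 lowest of each list, the 6 leading each way of the other contrasts and a fixed set. ADAR, DTX3L, HELZ2, IFI6, IRF1, IRF7, IRF8, PARP14, PARP9, SMCHD1 and TRIM25, the genes of the closing observations and the count of neighbouring genes fall outside that rule and were chosen after their values were seen. Replicates carry numbers in accession order, so numbers pair no birds across feeds. The segment score, the bird match over 100 probe sets and the 5' minus 3' index are checks over all arrays: 4 arrays lay on the other side of the score, and 24 of 25 birds matched. Alternatives are given in the closing section.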

Additional observations from a re-analysis of the deposited data

Results flagged for a closer look

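A single bird stood far from the other 4 of its group in 14 of 182 groups of 5 examined (named genes, list means and array checks). Chance flags about 1 in 20 groups, and no cause was tested for any of them. Among the antiviral genes lysolecithin low replicate 2 was the low bird: RSAD2 was 9.23 there against 10.70 to 11.08 in the others, IFIT5 10.82 against 11.66 to 11.89 and IFIH1 9.56 against 10.66 to 11.03. All 3 values were still above every control. PML was 7.67 in control replicate 2 against 8.36 to 8.52 in the other controls.

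Control replicate 5 had VIM at 7.58, while the other controls read 6.44 to 6.46, and SLC4A4 at 8.16 against 7.26 to 7.51. The same array had the lowest 5' minus 3' index, -1.04 against -0.75 to -0.72. Over the 10 fits with 1 bird left out, VIM passed in 7 and SLC4A4 in 8. Control replicate 1 had COL6A1 at 8.22 against 6.43 to 6.94, and control replicate 2 had RPS15A at 12.23 against 11.69 to 11.80 and a cell cycle list mean of 6.86 against 5.50 to 5.82. Control replicate 4 had MYBPC1, a muscle myosin binding protein, at 4.23 against 3.23 to 3.42 and PPIP5K2, an inositol pyrophosphate kinase, at 4.31 against 4.61 to 4.70. MYBPC1 rose by 2.07 ± 0.46 with groups that overlapped, and PPIP5K2 fell by 0.66 ± 0.11 without overlap (limma). The 3 other probe sets of MYBPC1 ran from 0.05 to 0.35 and none passed, while 1 of the 3 others of PPIP5K2 passed with the same sign. LPCAT3 was 9.78 in lysolecithin low replicate 1 against 10.49 to 10.75, and the endothelial and fibroblast list mean was 4.19 in lysolecithin low replicate 5 against 4.41 to 4.49.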

How the results depend on the processing

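The comparison with control gave 336 probe sets and 174 with no batch term, 161 when batch was a random block, 514 over brighter probe sets only, 515 with array weights, 601 when the jejunum arrays joined the fit under a replicate block for the bird, 663 without the ileum arrays in doubt, and 513 after quantile normalisation, an alternative chosen after seeing the data. Leaving out 1 bird at a time gave 21 to 554. A trend and robust prior (296), centring (240), the 2 groups alone (361) and the index as a covariate (293) stayed within 1.5 times by count. In that order, 284, 240, 188 and 254 of their probe sets were among the 336. The share that rose was 51.2%, but 64.4% without a batch term, 65.8% with the random block, 62.9% with the 2 groups alone, and 66.7% and 36.6% without control replicates 3 and 5. Interferon members that rose numbered 19 to 24 under the other settings and 4 to 22 with 1 bird left out. Ribosomal members that fell numbered 10, and 1 without a batch term or with the random block, 21 over brighter probe sets or with the replicate block, 5 with the trend prior, 4 after centring or with the index, 0 with the 2 groups alone, 25 after quantile normalisation, and 0 to 23 with 1 bird left out. The endothelial and fibroblast median of -0.41 was -0.69 over brighter probe sets, -0.19 over the mean of a gene's probe sets, and -0.48 to -0.14 with 1 bird left out. Against LPC low, the count of 14 became 41 without a batch term, 34 over brighter probe sets, 0 with the 2 groups alone and 1010 without the arrays in doubt. Uncalled values near 0 changed sign: SLC10A2 was -0.31 with the index, and with 1 bird left out SLC10A2 ran from -0.058 to 0.44, FABP6 from -0.12 to 0.15 and LPCAT3 from -0.21 to 0.064. KAT2A was -0.82 by its brightest probe set. Of 1726 values of the 81 genes traced under alternatives, 1481 kept direction and side of the threshold, 212 lost the call (156 of them with 1 bird left out), 24 gained it and 9 changed sign. The cause was not tested. No paired analysis across feeds was possible because replicate numbers follow accession order; the block above pairs the segments of a bird. The segment difference had 0 calls under every alternative run.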

Other observations

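Some called genes outside the lists deal with lipids, and they were chosen after their values were seen. PLA2G6, a calcium-independent phospholipase A2 that yields lysophospholipids, read 5.54, 5.10, 5.37, 5.33 and 5.39 in controls and 6.37, 5.47, 6.58, 6.66 and 6.46 with lysolecithin low, a rise of 0.96 ± 0.21 with groups that overlapped (SE; limma, adjusted p = 0.0347). Its other probe set rose by 1.15. Lysolecithin low replicate 2, the low bird for several antiviral genes, was also the low bird for PLA2G6. LIPI, a lipase that makes lysophosphatidic acid, rose by 1.23 ± 0.23 from 8.42 to 8.98 in controls to 9.65 to 10.33, and ACSF2, an acyl-CoA synthetase, by 1.08 ± 0.20, both without overlap. PGS1, an enzyme of cardiolipin synthesis, rose by 0.78 ± 0.17. Against these, KDSR, an enzyme of sphingolipid synthesis, fell by 0.92 ± 0.20 and PITPNC1, a phosphatidylinositol transfer protein, by 0.70 ± 0.16, with every lysolecithin low bird below every control and no other probe set of either called.

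Further genes outside the lists were also chosen because they were called, so they stand for no group. EEF1D, a subunit of the exchange factor for elongation factor 1, read 11.35, 11.78, 11.14, 11.58 and 11.33 in controls and 10.50, 10.86, 10.49, 10.65 and 10.82 with lysolecithin low, a fall of 0.77 ± 0.15 (limma, adjusted p = 0.0184), while its other probe set was at 0.00. EEF1B2, another subunit, fell by 0.75 ± 0.17 and EIF3H, of an initiation factor, by 0.64 ± 0.15. The proton pump subunit ATP6V0A2 fell by 0.70 ± 0.13, and the lysosomal membrane protein LAMP2 by 0.88 ± 0.21 by 1 of its 5 probe sets. IRF9, which carries the type I interferon signal to DNA, rose by 1.17 ± 0.23 from 6.33 to 6.83 in controls to 7.36 to 7.94, and TICAM1, the adaptor of TLR3, by 0.53 ± 0.13 (limma, adjusted p = 0.0177 and 0.0449).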
